A study of Homo sapiens with 4 samples.

Results

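The SLC25 genes encode the mitochondrial carrier family, and the 48 protein-coding genes whose symbol starts with SLC25A were taken from a table of 60671 human gene IDs by matching each Ensembl ID to its symbol. All 48 were present in the table, and 41 of them were expressed highly enough to be tested. Each was placed in 1 of 9 classes by the substrate it is known or thought to carry.

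The libraries came from SK-N-BE(2), an established human neuroblastoma cell line with amplified MYCN. Cells carried either a scrambled control hairpin (shNC) or a hairpin against METTL14 (shMETTL14), the RNA-binding partner of METTL3 in the enzyme complex that writes N6-methyladenosine (m6A) on RNA, and each group had 2 libraries. According to the study's methods, hairpins were delivered with the pLKO.1 lentiviral vector and infected cells were selected with puromycin, so both groups went through infection and selection and each was a selected population. The labels do not say which METTL14 hairpin was used, nor whether the 2 libraries of a group came from separate cultures, so the p-values below measure the spread between these libraries, which may be technical.

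Mitochondrial carriers are small proteins that sit in the inner mitochondrial membrane and exchange a solute of the matrix for a solute of the cytosol. They bring in ADP and phosphate for ATP synthesis and send ATP out, and they move nucleotides, cofactors, amino acids, carboxylates, iron and acylcarnitines, so that enzymes on either side of the membrane can share substrates. The proteins are made in the cytosol, escorted across the intermembrane space by small TIM chaperones and inserted by the TIM22 complex. In a dividing tumour cell the family links respiration with the supply of building blocks for nucleotides, haem and lipids.

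Library depth ran from 18925786 to 19886214 reads assigned to genes. Levels are given as counts or as CPM, which are counts relative to the library size after TMM scaling. METTL14 itself had 753 and 754 counts in the shNC libraries and 303 and 321 in the shMETTL14 libraries. Its level fell to 41.7% of control, from 38.6 ± 1.13 to 16.1 ± 0.851 CPM (mean ± SD, n = 2), with a log2 fold change of -1.26 ± 0.0832 (SE; edgeR adjusted p = 3.6e-11). In what follows a gene is called when its adjusted p is under 0.05 in edgeR's quasi-likelihood F-test of shMETTL14 against shNC, with Benjamini-Hochberg adjustment across the 16309 genes in the test. Because 2 libraries against 2 cannot give a two-sided exact permutation p below 0.333, each call rests on a variance model shared across genes. RNA was taken from whole cultures, so fewer cells of a type and less RNA per cell cannot be told apart.

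Most carrier genes shifted by small amounts, and more of them rose than fell. Of the 41 members tested, 18 rose and 7 fell, and 16 did not pass the test. The share called, 61%, stood beside 52.5% of all genes tested and 58.5% of the protein-coding genes tested, so the number of calls by itself was near that of other coding genes. By direction, 43.9% of the tested members rose against 27.2% of all genes tested, and 17.1% fell against 25.3%. All genes tested include noncoding ones, whereas every member is protein-coding. Shares by direction over protein-coding genes alone were not computed, so these differences are not set against like genes. The median log2 fold change was 0.16 in the members, 0.00 over all genes tested (-0.0010) and 0.04 over the protein-coding ones (0.0357). The size of the change was ordinary: the median absolute log2 fold change was 0.31 in the members and 0.30 over all genes tested.

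Only 8 members were called with a change of at least 1.5-fold, which is 19.5% of those tested and close to the 18.8% found over all genes. The 4 that rose were SLC25A16, SLC25A44, SLC25A33 and SLC25A17, and the 4 that fell were SLC25A41, SLC25A27, SLC25A42 and SLC25A38. The shNC and shMETTL14 libraries did not overlap in CPM for 31 members (75.6%, against 75.5% of all genes tested), and these included all 25 called members. The summed level of the family was 2591 and 2706 CPM in the shNC libraries and 2801 and 2806 CPM in the shMETTL14 libraries. The sum was slightly higher in both shMETTL14 libraries, and the shNC libraries lay further from each other than the shMETTL14 libraries did. These sums depend on TMM scaling and were not computed with other scalings. Upper quartile scaling moved log2 fold changes of the better expressed genes by a median of -0.068.

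**Figure D1:**
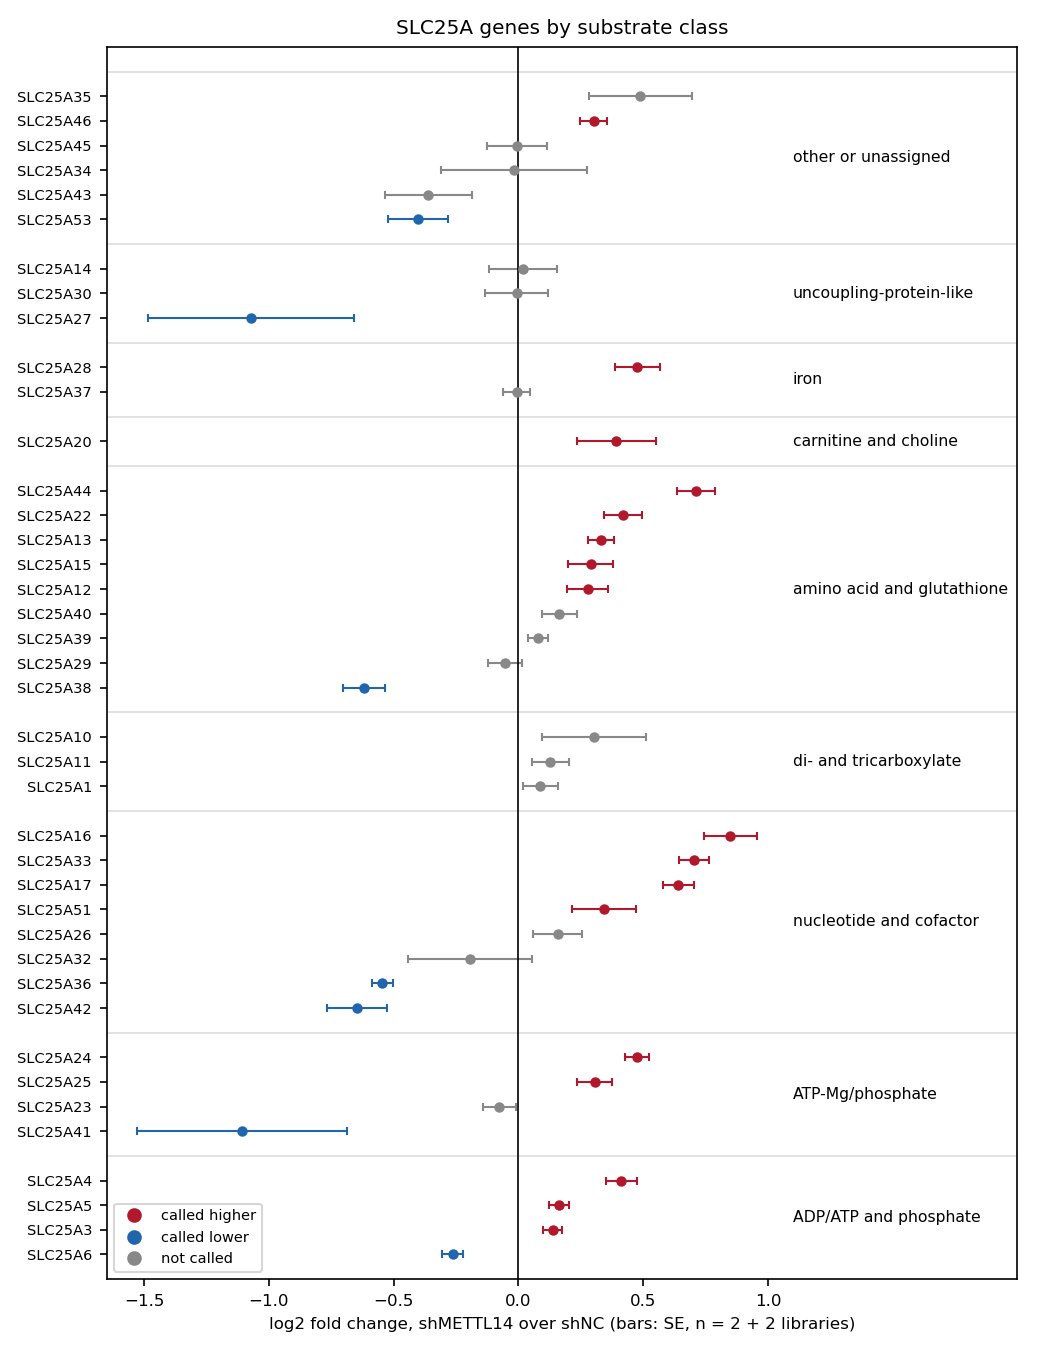
Log2 fold change of shMETTL14 over shNC (horizontal axis, bars show the SE) for 40 of the 41 SLC25A genes tested, grouped by substrate class. Red points were called higher (17 genes), blue points called lower (7 genes) and grey points were not called (16 genes), and no gene of the di- and tricarboxylate class was called.

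The ADP/ATP carriers and the phosphate carrier supply the ATP synthase with its substrates, and 3 of them were the most abundant SLC25A genes per length in these cells. SLC25A3, the phosphate carrier (chr12:98593591-98606379), SLC25A5, the ADP/ATP carrier ANT2 (chrX:119468400-119471319), and SLC25A6, the ADP/ATP carrier ANT3 (chrX:1386152-1392724, in the pseudoautosomal region), together held 59.9% and 60.7% of the family's CPM per kb in the shNC libraries and 58.5% and 58.6% in the shMETTL14 libraries. CPM per kb is CPM divided by the length of the principal coding transcript in GENCODE 29. It allows levels of different genes to be compared only as far as that transcript is the one expressed, which was not checked. In the shNC libraries the mean levels were 327 CPM per kb for SLC25A3, 237.1 for SLC25A5, 212.8 for SLC25A6 and 11.5 for SLC25A4, which encodes the heart and muscle form ANT1. The fifth member, SLC25A31 (the testis form ANT4), had 1 count in shNC library 1 and 0 counts in the others.

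The balance between these carriers moved towards SLC25A5 and SLC25A4 and away from SLC25A6. SLC25A6 had 8348 and 8785 counts in the shNC libraries and 7149 and 7048 in the shMETTL14 libraries. Its log2 fold change was -0.26 ± 0.0427 (edgeR adjusted p = 2.1e-05), and both shMETTL14 libraries lay below both shNC libraries.

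SLC25A5 had 5875 and 5926 counts in the shNC libraries and 6608 and 6529 in the shMETTL14 libraries. It rose by 0.16 on the log2 scale (SE 0.0397, edgeR adjusted p = 0.00151), so the ADP/ATP carrier that is linked to growing cells went up a little where ANT3 went down. SLC25A4 (chr4:185143241-185150382) rose more, from 955 and 1044 counts to 1310 and 1336, with a log2 fold change of 0.41 ± 0.0621 (edgeR adjusted p = 8.0e-06). SLC25A3 had 10668 and 10768 counts in the shNC libraries and 11820 and 11630 in the shMETTL14 libraries, a log2 fold change of 0.14 ± 0.0381 (edgeR adjusted p = 0.00425). The groups did not overlap for any of the 3 genes that rose. The call for SLC25A3 was lost with upper quartile scaling (log2 fold change 0.07, adjusted p = 0.128), and that scaling brought SLC25A5 down to 0.10 (adjusted p = 0.0481, edgeR).

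As a share of the 3 expressed ADP/ATP carrier genes in CPM per kb, SLC25A5 took 52% and 50.9% in the shNC libraries and 58% and 57.9% in the shMETTL14 libraries. SLC25A6 took 45.6% and 46.6% in the shNC libraries and 38.7% and 38.6% in the shMETTL14 libraries. SLC25A4 remained the smallest share, 2.42% and 2.57% against 3.3% and 3.4%. These shares do not depend on how the libraries were scaled. They do depend on the transcript lengths used, 1274 bases for SLC25A5, 2062 for SLC25A6 and 4440 for SLC25A4. By counts SLC25A6 exceeded SLC25A5 in each library. The ratio of SLC25A5 to SLC25A6 counts was 0.704 and 0.675 in the shNC libraries and 0.924 and 0.926 in the shMETTL14 libraries. The coding sequences of the 3 genes are alike, each 897 bases long, and how reads that match more than 1 of them were treated is not known.

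Among the nucleotide and cofactor carriers were 4 of the 8 members with changes of at least 1.5-fold, and both directions were seen. Of 10 members, 9 were tested, 5 rose, 2 fell and 2 did not pass the test, with a median log2 fold change of 0.34. Over all genes tested, noncoding ones included, 27.2% rose and 25.3% fell. SLC25A33 and SLC25A36 both carry pyrimidine nucleotides into mitochondria, where they feed the making of mitochondrial DNA and RNA, and they moved in opposite directions. SLC25A33 (chr1:9539482-9585179) had 826 and 816 counts in the shNC libraries and 1292 and 1365 in the shMETTL14 libraries. It rose by 0.70 on the log2 scale (SE 0.0602, edgeR adjusted p = 2.4e-09), a 1.63-fold increase, with both shMETTL14 libraries above both shNC libraries.

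SLC25A36 (chr3:140941830-140980961) was the more abundant of these carriers in each library, with 3763 and 3688 counts in the shNC libraries and 2541 and 2533 in the shMETTL14 libraries. It fell by 0.55 on the log2 scale (-0.545, SE 0.042, edgeR adjusted p = 4.5e-10), to 68.5% of control, and again the groups did not overlap. The ratio of SLC25A33 counts to SLC25A36 counts was therefore 0.22 and 0.221 in the shNC libraries and 0.508 and 0.539 in the shMETTL14 libraries. Such a ratio within a library does not depend on scaling, and with 2 libraries a group it was not tested on its own.

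The 250 bases before the RefSeq starts of this pair on GRCh38.p14 are shown because the genes carry like substrates and moved in opposite directions. They lie at chr1:9539215-9539464 for SLC25A33 and chr3:140941586-140941835 for SLC25A36, both on the plus strand. RefSeq and GENCODE place starts differently, and the SLC25A36 stretch runs 6 bases past the first start of that gene in GENCODE 29. Capitals mark an E-box (CACGTG, which MYC and MYCN proteins with MAX are known to bind) or a CCAAT box (CCAAT), searched on both strands.
SLC25A33: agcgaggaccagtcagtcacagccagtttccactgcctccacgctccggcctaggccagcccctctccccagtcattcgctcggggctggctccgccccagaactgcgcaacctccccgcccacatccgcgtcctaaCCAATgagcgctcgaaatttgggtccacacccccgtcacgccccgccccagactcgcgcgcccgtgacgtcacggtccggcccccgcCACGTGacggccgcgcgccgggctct
SLC25A36: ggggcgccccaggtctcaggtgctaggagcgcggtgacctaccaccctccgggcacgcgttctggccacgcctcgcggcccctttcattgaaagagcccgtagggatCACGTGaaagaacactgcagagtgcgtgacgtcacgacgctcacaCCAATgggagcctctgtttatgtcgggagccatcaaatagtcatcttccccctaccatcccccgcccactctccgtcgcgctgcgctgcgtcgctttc
Both stretches held an E-box and a CCAAT box, in the opposite order. In SLC25A33 the E-box began 26 bases before the start and the CCAAT box 113 bases before it. In SLC25A36 the E-box began at 143 bases and the CCAAT box at 98 bases, so these letters were common to a carrier that rose and a carrier that fell.

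SLC25A16 and SLC25A42 are both linked to coenzyme A, SLC25A42 as a carrier of coenzyme A and adenine nucleotides and SLC25A16 through its similarity to a yeast gene needed for coenzyme A in mitochondria. SLC25A16 (chr10:68477999-68527474) had 235 and 195 counts in the shNC libraries and 373 and 396 in the shMETTL14 libraries, the largest rise among the members, with a log2 fold change of 0.85 ± 0.106 (edgeR adjusted p = 6.9e-07). SLC25A42 (chr19:19063999-19112888) had 250 and 259 counts in the shNC libraries and 157 and 166 in the shMETTL14 libraries, a log2 fold change of -0.65 ± 0.12 (edgeR adjusted p = 1.0e-04). Neither gene had overlapping groups. The shNC libraries had a ratio of SLC25A16 to SLC25A42 counts of 0.94 and 0.753, against 2.38 and 2.39 in shMETTL14, so the gene with fewer counts became the gene with more.

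SLC25A17 (chr22:40769630-40819399) belongs to the family but works in the peroxisome, where it carries coenzyme A, FAD and related cofactors. It had 746 and 733 counts in the shNC libraries and 1137 and 1154 in the shMETTL14 libraries, and rose 1.56-fold (log2 fold change 0.64 ± 0.062, edgeR adjusted p = 1.6e-08) without overlap of the groups. SLC25A51, the NAD carrier, rose by 0.34 (edgeR adjusted p = 0.0276), and its call was lost in 6 of 11 alternatives: with DESeq2 (adjusted p = 0.215), upper quartile scaling or library size alone, and without shNC library 1 (log2 fold change 0.21), shMETTL14 library 1 or shMETTL14 library 2. Its near-identical copy SLC25A52 had 0 counts in every library. SLC25A26, the S-adenosylmethionine carrier that brings the methyl donor into mitochondria, had a log2 fold change of 0.16 and was not called. SLC25A32, which carries folate and FAD, had a log2 fold change of -0.19 and was not called, and 80.8% of its exon bases are shared with other coding genes, among them DCAF13.

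**Figure D2:**
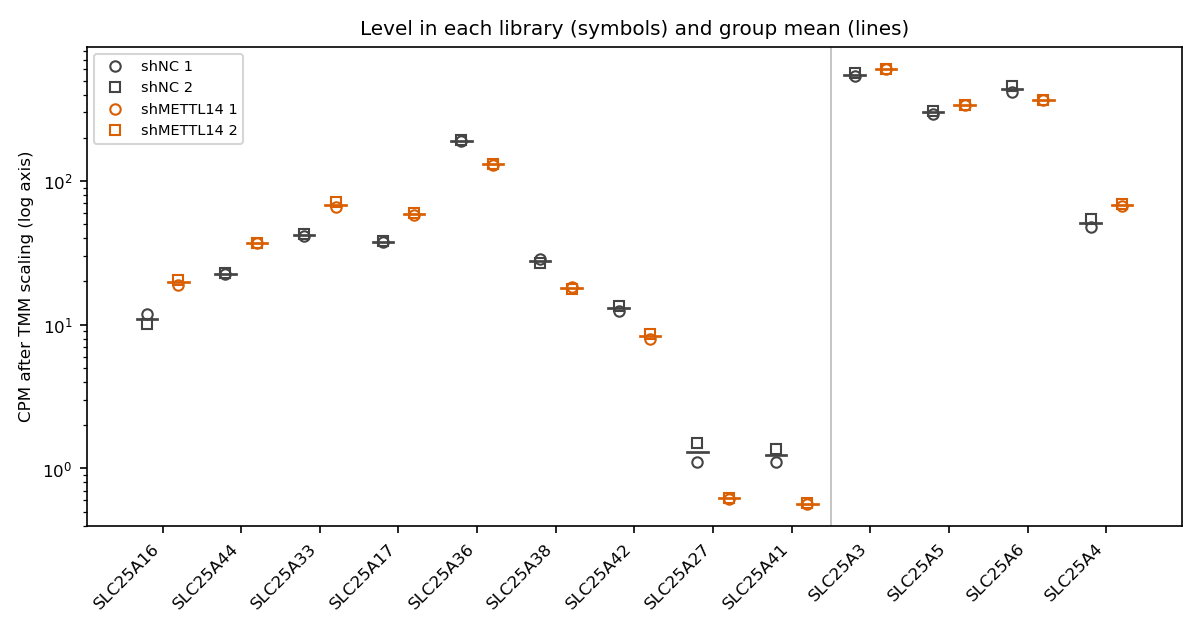
Level in CPM after TMM scaling (log axis) of the 8 members called with a change of at least 1.5-fold, of SLC25A36 and, right of the line, of the 4 expressed ADP/ATP and phosphate carriers, in each library. Lines mark the mean of the 2 libraries of a group, and in each of the 13 genes both shMETTL14 libraries lie on 1 side of both shNC libraries.

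**Figure D3:**
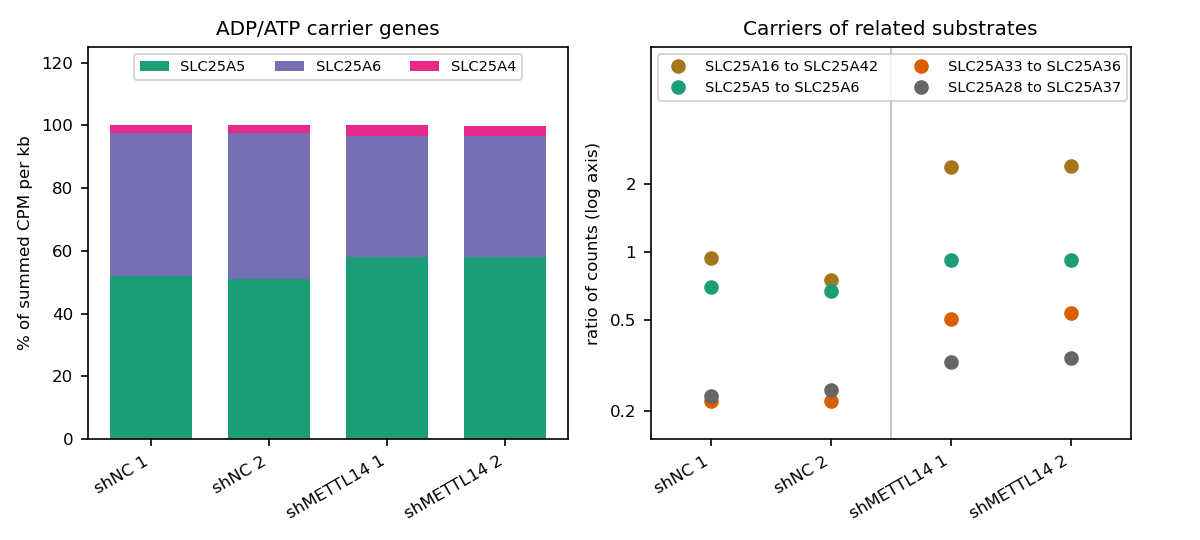
Left, the share of the summed CPM per kb (in %) that SLC25A5, SLC25A6 and SLC25A4 took in each library, with SLC25A5 at 50.9% to 52% in shNC and at 57.9% to 58% in shMETTL14. Right, the ratio of counts (log axis) between carriers of related substrates in each library, where the SLC25A33 to SLC25A36 ratio is at 0.22 and 0.221 in shNC and at 0.508 and 0.539 in shMETTL14.

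The ATP-Mg/phosphate carriers are calcium-regulated and set the total pool of adenine nucleotides in the matrix. SLC25A24 (SCaMC-1), with 113.6 ± 3.28 CPM in shMETTL14 and 81.7 ± 0.1058 CPM in shNC (mean ± SD, n = 2), rose by 0.48 on the log2 scale (SE 0.0468, edgeR adjusted p = 2.1e-08). SLC25A25 (SCaMC-2) rose by 0.31 (edgeR adjusted p = 9.9e-04), and SLC25A23 (SCaMC-3) had a log2 fold change of -0.08 and was not called. SLC25A41 (chr19:6426037-6433779), a short form of this carrier that neighbours SLC25A23 on chromosome 19, was scarce: it had 22 and 26 counts in the shNC libraries and 11 and 11 in the shMETTL14 libraries. Its log2 fold change was -1.11 ± 0.421 (edgeR adjusted p = 0.0317). That call was lost with DESeq2 (adjusted p = 0.231) and when any of the 4 libraries was left out (adjusted p between 0.0734 and 0.2), although the log2 fold change stayed between -1.26 and -0.95.

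Among the amino acid and glutathione carriers 9 of 11 members were tested, and 3 of these did not pass the test. Of the 9, 5 rose (55.6%, against 27.2% of all genes tested, noncoding ones included) and 1 fell (11.1%, against 25.3%). The median log2 fold change was 0.28, and with 9 genes these shares are a description. SLC25A44 (chr1:156193932-156212796), the carrier of branched-chain amino acids, had 446 and 437 counts in the shNC libraries and 729 and 709 in the shMETTL14 libraries, a log2 fold change of 0.71 ± 0.0769 (edgeR adjusted p = 8.1e-08). The 2 groups lay far apart relative to the gap between libraries of a group.

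SLC25A38 (chr3:39383324-39397351), which brings glycine into mitochondria for the first step of haem synthesis, went the other way. It had 567 and 515 counts in the shNC libraries and 356 and 344 in the shMETTL14 libraries, and fell by 0.62 on the log2 scale (SE 0.0857, edgeR adjusted p = 2.8e-06). Both shMETTL14 libraries lay below both shNC libraries.

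The aspartate/glutamate carriers of the malate-aspartate shuttle rose together. SLC25A13 (citrin) rose by 0.33 on the log2 scale (edgeR adjusted p = 1.3e-05) and SLC25A12 (aralar) by 0.28 (edgeR adjusted p = 0.00797), and the ratio of their counts, between 2.36 and 2.82 in the 4 libraries, did not separate the groups. The call for SLC25A12 was lost with DESeq2 (adjusted p = 0.0814) and without shNC library 2 (adjusted p = 0.103). SLC25A22, a glutamate carrier, rose by 0.42 (edgeR adjusted p = 7.5e-05), while SLC25A18, the other glutamate carrier, had at most 5 counts in a library. SLC25A22 shares 10.8% of its exon bases with the coding gene PANO1, the largest such share among the called members. SLC25A15, the ornithine carrier of the urea cycle, rose by 0.29 (edgeR adjusted p = 0.0114), a call lost with DESeq2 (adjusted p = 0.131) and without shNC library 2 or shMETTL14 library 2.

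The glutathione carriers were not called in the fit of all 4 libraries with group as the only term. SLC25A39 was the most abundant of this class, with 136.2 CPM per kb in shNC and 143.8 in shMETTL14, and its log2 fold change was 0.08 (edgeR adjusted p = 0.118), with 0.04 (0.0357) when shNC library 1 was left out and 0.12 when shNC library 2 was (edgeR adjusted p = 0.0291). SLC25A40 had a log2 fold change of 0.16 (edgeR adjusted p = 0.0564), close to the threshold. It was called with a replicate block, without shNC library 2 (0.24, edgeR adjusted p = 0.019) and without shMETTL14 library 1 (0.23, edgeR adjusted p = 0.0254), and was at 0.09 without shNC library 1 and 0.11 without shMETTL14 library 2. SLC25A29, a carrier of basic amino acids, had a log2 fold change of -0.05.

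No carboxylate carrier passed the test: of the 3 tested, edgeR called 0, with 0 at an unadjusted p under 0.05, and DESeq2 called 0, while SLC25A11 was called when shNC library 2 was left out. SLC25A1, which exports citrate for lipid synthesis, had a log2 fold change of 0.09 ± 0.0697 (edgeR adjusted p = 0.306). SLC25A11, the oxoglutarate carrier that completes the malate-aspartate shuttle, had 0.13 ± 0.073 (edgeR adjusted p = 0.146), and SLC25A10, the dicarboxylate carrier, had 0.30 ± 0.208 (edgeR adjusted p = 0.234). SLC25A10 shares 46.6% of its exon bases with another coding gene, and with 63 to 100 counts in a library a change of the size seen in SLC25A1 or SLC25A11 was not detectable for it. These values rest on single libraries: with 1 library left out they ran from 0.0376 to 0.14 for SLC25A1 (lowest without shNC library 2), from 0.0159 to 0.25 for SLC25A11 and from 0.0848 to 0.55 for SLC25A10 (both lowest without shNC library 1 and highest without shNC library 2). The fourth member, SLC25A21, which carries oxodicarboxylates, had 0 counts in every library.

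The carriers of fatty acid groups and of iron gave 1 call each. SLC25A20, which exchanges carnitine for acylcarnitine and so feeds fatty acid oxidation, had a log2 fold change of 0.39 ± 0.158 (edgeR adjusted p = 0.0426). This was the least stable call: it was lost under 8 of 11 alternatives, and without shMETTL14 library 1 the log2 fold change was 0.24. SLC25A28 (mitoferrin-2) had 342 and 379 counts in the shNC libraries and 511 and 487 in the shMETTL14 libraries, and rose by 0.48 on the log2 scale (SE 0.0908, edgeR adjusted p = 1.3e-04). SLC25A37 (mitoferrin-1), the iron carrier best known from red cell precursors, had a log2 fold change of -0.01 ± 0.0551 (edgeR adjusted p = 0.926). The ratio of SLC25A28 to SLC25A37 counts was 0.232 and 0.246 in the shNC libraries and 0.328 and 0.342 in the shMETTL14 libraries.

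Of the genes that resemble uncoupling proteins, SLC25A27 (UCP4, chr6:46652915-46678193), which is known from neurons, was the member that passed the test. It had 22 and 29 counts in the shNC libraries and 12 and 12 in the shMETTL14 libraries, a log2 fold change of -1.07 ± 0.413 (edgeR adjusted p = 0.0338). The groups did not overlap, but counts were low, and the call was lost with DESeq2 (adjusted p = 0.232) and when any of the 4 libraries was left out. SLC25A14 (0.02) and SLC25A30 (-0.01) had log2 fold changes near 0 and were not called.

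Among carriers with other roles or no assigned substrate, SLC25A46, which sits in the outer membrane and takes part in mitochondrial dynamics, rose by 0.30 on the log2 scale (edgeR adjusted p = 6.0e-05). SLC25A53 had 270 and 276 counts in the shNC libraries and 185 and 225 in the shMETTL14 libraries, and fell by 0.40 on the log2 scale (edgeR adjusted p = 0.00733). The shMETTL14 libraries differed from each other more than the shNC libraries did: without shMETTL14 library 1 the log2 fold change of SLC25A53 was -0.25 and the call was lost, as it was with DESeq2 (adjusted p = 0.111). SLC25A35 (0.49, edgeR adjusted p = 0.0515), SLC25A43 (-0.36, edgeR adjusted p = 0.0865), SLC25A45 (-0.01) and SLC25A34 (-0.02) were not called, and SLC25A35 shares 33.2% of its exon bases with RANGRF.

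The 7 members that were not tested had few or no counts. SLC25A2 had 3, 3, 1 and 4 counts (shNC libraries first), and SLC25A18 had 0, 4, 5 and 0. SLC25A31, SLC25A47 and SLC25A48 had at most 2 counts in a library, and SLC25A21 and SLC25A52 had none. A library with 0 counts allows a level of up to 3 counts, which is 0.151 to 0.159 CPM here (counting error only).

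The members shared features that the choice by name did not use. Their coding sequences were short, with a median of 945 bases (range 825 to 2037) and 40 of 48 between 850 and 1100 bases, against a median of 1422 bases over 12783 of the 12809 protein-coding genes tested. The exceptions include SLC25A12 and SLC25A13, at 2037 and 2028 bases, which carry calcium-binding domains in front of the carrier domain. The 5-base word GGACT, the DNA form of a common m6A context, occurred a median of 1.45 times per kb of coding sequence in the members and 0.98 times in the protein-coding genes tested. The median was 2.07 per kb in the 18 members that rose, 1.11 in the 7 that fell and 1.08 in the 16 not called. The split by call was not made over other genes, and in coding sequences this short such medians rest on few words in a gene. These counts are a description of letters in the principal coding transcript, and no m6A was measured here.

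Of the members, 40 had an entry in the RefSeq promoter table, in which each entry runs from 250 bases before to 50 bases after the start. Entries were missing for 8 members, among them SLC25A2, SLC25A16, SLC25A30, SLC25A32, SLC25A35, SLC25A37 and SLC25A41. The median GC content was 66.2% in the members' promoters and 58.3% over all 27305 promoters. The E-box CACGTG was found in 7 of 40 members (17.5%, against 7.43% of all promoters), which were SLC25A13, SLC25A31, SLC25A33, SLC25A36, SLC25A38, SLC25A46 and SLC25A51. The CCAAT box was in 19 (47.5%, against 35.7%), the ETS motif CCGGAAG in 8 (20%, against 10.7%) and the TATA box TATAAA in 3 (7.5%, against 12%). All were searched on both strands, and none of these words contains another. The members and all promoters were not matched for GC content or for expression in these cells, so the shares are a description.

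Genes around the carriers were taken from lists of mitochondrial pathways. Over all genes tested, noncoding ones included, 27.2% rose and 25.3% fell, and shares by direction over protein-coding genes alone were not computed. The import route for carriers, made of the TOM receptors and pore, the small TIM chaperones and the TIM22 complex, had 13 genes, of which 7 rose, 1 fell and 5 did not pass the test (median log2 fold change 0.23). The share called, 61.5%, was near the 58.5% of protein-coding genes tested. TIMM8B (0.72), TOMM40 (0.70), TIMM10 (0.60) and TOMM22 (0.54) rose most, while TOMM70, the receptor that carriers dock on, fell by 0.30 on the log2 scale (edgeR adjusted p = 3.2e-06). Of the other members of the carrier fold, 4 of 5 were tested: UCP3 (1.03), MTCH2 (0.40) and MTCH1 (0.12) rose, UCP2 fell by 0.18, and UCP1 had 1 count in 1 library.

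Of 18 other inner membrane transporters, 8 rose, 3 fell and 7 did not pass the test (median log2 fold change 0.14), and the 61.1% called was again near the 58.5% of protein-coding genes. MCUB (0.69) and LETM1 (0.68), which act in calcium and ion exchange, and MPC1 (0.48), a subunit of the pyruvate carrier, rose. The SFXN genes went both ways. SFXN3, a serine carrier, fell by 0.51 and SFXN2 by 0.34, while SFXN1 (0.31), SFXN4 (0.29) and SFXN5 (0.39) rose. The enzymes that work with the malate-aspartate and citrate carriers had 6 of 7 higher and 0 lower (median 0.17). The share higher was 85.7%, against 27.2% of all genes tested, noncoding ones included. The carnitine shuttle had 2 of 4 tested genes higher, with CPT1A at 0.72, and 1 lower. Mitochondrial one-carbon enzymes, which use serine and glycine, had 2 of 7 tested genes higher and 2 lower, with a median of -0.04.

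The outer membrane porins, through which carrier substrates reach the intermembrane space, held the largest single change among these lists. VDAC1 had 5351 and 5301 counts in the shNC libraries and 1609 and 1642 in the shMETTL14 libraries, a log2 fold change of -1.70 ± 0.044 (edgeR adjusted p = 1.2e-17). VDAC2 (0.27) and VDAC3 (0.38) rose. Among regulators of mitochondrial biogenesis 6 of 9 rose (66.7%, against 27.2% of all genes tested, noncoding ones included). Another 11.1% fell, against 25.3%, and with 9 genes these shares are a description. Those that rose included PPRC1 (0.60) and the scarce PPARGC1A (22 and 23 counts in shNC against 44 and 51 in shMETTL14, log2 fold change 1.08). GABPA, a subunit of an ETS factor, fell by 0.50, and NRF1 (-0.20) and ESRRA (0.0037) were not called.

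**Figure D4:**
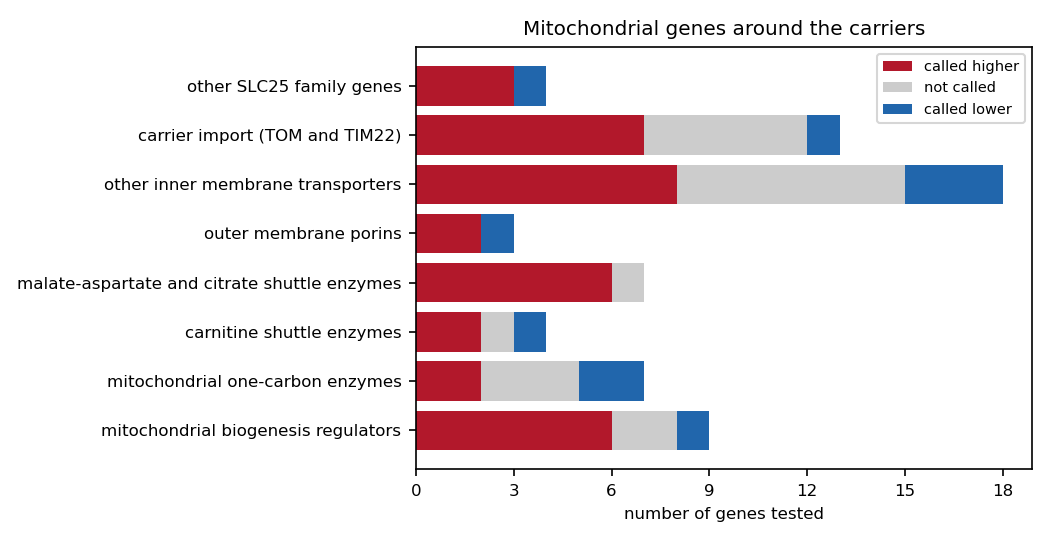
Number of genes tested (horizontal axis) in 8 lists of mitochondrial genes around the SLC25A carriers, split into called higher (red), not called (grey) and called lower (blue) in shMETTL14 against shNC. In the import list 7 of 13 genes were called higher, and of the 3 porins VDAC1 was the gene called lower.

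Transcripts of the mitochondrial genome took 9.13% (Wilson 95% interval 9.115 to 9.14) and 8.84% (8.826 to 8.852) of gene counts in the shNC libraries and 9.88% (9.862 to 9.889) and 9.59% (9.578 to 9.604) in the shMETTL14 libraries, intervals that cover counting error only. Both shMETTL14 libraries were higher, and the part of this shift in the carrier values was not tested. All 10 neuroblastoma markers examined were detected, and their summed level was 5689 and 5560 CPM in shNC and 5542 and 5594 CPM in shMETTL14. Within that list 2 genes (MYCN and ISL1) rose and 8 fell. MYCN alone had 2637 and 2596 CPM in shNC and 3153 and 3193 CPM in shMETTL14, and the other 9 markers summed to 3052 and 2964 CPM in shNC and to 2389 and 2401 CPM in shMETTL14. Markers of mesenchymal and Schwann cells (10 genes) summed to 220.8 and 203.4 CPM in shNC and 173.6 and 177.8 CPM in shMETTL14, with SOX10 at 0 in every library. TWIST1 made up most of that sum, with 152.1 and 137.7 CPM in shNC and 130.9 and 132.3 CPM in shMETTL14. Of the 7 genes of that list that were tested, 1 (COL1A2) rose and 5 fell. Markers of blood and endothelium (6 genes) summed to between 2.247 and 4.114 CPM. The part of these markers in the carrier values was not tested.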

How the data were processed

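The authors deposited raw counts of reads for each Ensembl gene, not normalized, as a single table. The submitters' processing notes name HISAT2 2.1.0, StringTie 1.3.6, HTSeq 0.13.5, edgeR and the build GRCh38, without the role of each. The annotation release and the strand setting are not given in the sources used here, so reads of overlapping or antisense genes may be missing or misplaced. Counts in lines that name no gene (19.1% to 19.9% of a library) were left out, after which depth was 18925786 to 19886214 counts.

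IDs were matched to GENCODE 29 (58453 of 60671) and to a name table (60401), and coordinates are from GENCODE 29 on GRCh38. The 4 columns were matched to the labels by name. Differential expression was tested by edgeR's quasi-likelihood F-test (edgeR 4.0.16, R 4.3.3), with TMM scaling, group as the only term and filterByExpr defaults (minimum count 10, minimum total 15), on all 16309 genes that passed. Log2 fold changes set shMETTL14 over shNC, and SEs derive from the F statistic. Alternatives were RLE, upper quartile and library size scaling, other count filters, DESeq2 1.42.0, a replicate block and leaving out each library. The code was tested on simulated counts. Class counts and medians are described with no set test.

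The members, classes and lists were chosen with earlier results of these data known. By rule, METTL14, all SLC25A genes and listed genes could be named, with counts in every library for SLC25A genes called with a change of at least 1.5-fold and for ADP/ATP and phosphate carriers. A single member enters the counts, medians and sums but is not reported here on its own. The counts of a few other genes and the ratios between carriers were added after their values were seen. The table also holds 40 SLC25A pseudogenes, with at most 2 counts in a library. Replicates differed by more than sampling noise, with a mean chi-square per gene of 2.78 in shNC and 2.27 in shMETTL14. The chi-square is a mean over genes and was computed without TMM scaling. The common biological coefficient of variation, edgeR's estimate of spread beyond counting error, was 3.45%. These values do not tell whether the libraries of a group came from separate cultures.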

Additional observations from a re-analysis of the deposited data

How the results depend on the processing

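Of the 25 called SLC25A genes, 17 (13 higher, 4 lower) kept their call in all 11 alternative fits, 8 lost it in at least 1 of them (SLC25A3, SLC25A12, SLC25A15, SLC25A20, SLC25A27, SLC25A41, SLC25A51 and SLC25A53), and none changed sign. The number called was 25 with RLE scaling, 23 with upper quartile scaling (15 higher, 8 lower), 23 with library size alone, 24 with either other filter, 18 with DESeq2 and 21 to 23 when 1 library was left out, and 8 when a change of at least 1.5-fold was also asked for. Over all genes, edgeR called 8561 and DESeq2 5556; the cause was not tested. Among genes above a set expression level, upper quartile scaling moved the log2 fold change by a median of -0.068 and library size alone by -0.045. METTL14 stayed called throughout, with log2 fold changes from -1.33 to -1.21.

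Deviations of same-numbered libraries correlated at -0.0018 across genes, so no pairing by replicate number was seen at that level. Counting noise weighs on this value, so it cannot exclude pairing. The share of mitochondrial genome transcripts was higher in library 1 than in library 2 in shNC (9.13% and 8.84%) and in shMETTL14 (9.88% and 9.59%). In the fit with a replicate block, 27 members were called (20 higher, 7 lower), adding SLC25A35 and SLC25A40 and losing none, and METTL14 had a log2 fold change of -1.26; SLC25A34 turned to 0.01 (0.0066).

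Sign changes arose in 8 genes that were not called, all with values near 0 or low counts; the cause was not tested. SLC25A14 was -0.0485 with upper quartile scaling and -0.0261 with library size alone. With no filter on low counts SLC25A30 was 0.0036, SLC25A37 0.0034 and SLC25A45 0.0051, and SLC25A45 was 0.0012 with DESeq2. When 1 library was left out, log2 fold changes ranged from -0.0194 to 0.0603 for SLC25A14, -0.16 to 0.0098 for SLC25A23, -0.15 to 0.0494 for SLC25A29, -0.11 to 0.11 for SLC25A30, -0.45 to 0.11 for SLC25A32, -0.39 to 0.50 for SLC25A34, -0.0712 to 0.0593 for SLC25A37 and -0.0280 to 0.0175 for SLC25A45. In those fits the lone library of a group is assumed to vary like the other group. Depth limits the scarce members: the called members with under 100 counts in every library, SLC25A27 and SLC25A41, had changes of over 2-fold, and SLC25A35 at 0.49 was not called.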
